A study of Mus musculus with 6 samples.

Results

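The 48 genes described here encode the machinery that attaches, separates and divides chromosomes: mitotic kinases and checkpoint proteins, the chromosomal passenger complex, kinetochore subunits, regulators of the anaphase-promoting complex, mitotic kinesins, spindle-associated proteins, cytokinesis factors, chromosome-structure proteins and the transcription factors Foxm1 and Mybl2. They were chosen by gene name. Each had exactly 1 row among the 25965 rows of the deposited count table, and all 48 passed the filter on low counts that left 10896 genes for testing. RNA was sequenced from 6 mouse cell lines, all positive for BCR-ABL, the leukaemia-causing fusion kinase. The 3 knockout lines, KO1 to KO3, had been electroporated with a plasmid for Cas9, GFP and guide RNAs against CDK6, named pSpCas9(BB)-2A-GFP(px458)-hCDK6del in the labels. The 3 control lines, WT1 to WT3, labelled as wild type for Cdk6, received the control plasmid pSpCas9(BB)-2A-GFP(px458). GFP-positive cells of both groups were sorted and plated singly, so a line may represent 1 clone. The labels state that Western blots showed the knockout. Nothing in the labels says whether the lines came from separate parental cultures, so p-values measure only the spread between these 6 lines. The labels give no time point or added treatment for either group.

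Cyclin-dependent kinase 6, with D-type cyclins, phosphorylates retinoblastoma proteins in G1 and so releases E2F factors, which switch on genes of DNA replication. Mitotic genes follow later in the cycle: in human and mouse cells many of their promoters carry a cell cycle homology region (CHR) and CCAAT boxes, through which the MuvB complex represses them in resting cells and, joined by B-MYB and FOXM1, activates them in G2 and mitosis. Their RNAs accumulate in G2 and are used to attach chromosomes to the spindle, to hold anaphase until all are attached, and to cleave the cell. In bulk RNA of this kind, fewer cells in G2 or mitosis and less RNA per cell cannot be told apart.

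Promoter sequences show what most of these genes have in common beyond their function. RefSeq windows on GRCm38.p6, each running from 250 bases before to 50 bases after an annotated start, were at hand for 41 of the 48 genes. They were searched on both strands for the letters TTTGAA or TTTAAA (CHR) and CCAAT. A CHR match stood in 32 of the 41 windows (78.0%), against 19.1% of the 7773 windows of all tested genes and 27.9% of 27025 windows of all genes. A CCAAT match stood in 31 of 41 (75.6%), against 40.3% of tested genes. Both motifs together stood in 28 of 41 (68.3%), against 7.99% of tested genes. Close to the start the contrast was larger, since 28 of 41 windows (68.3%) held the CHR letters within 50 bases of the start on either side, against 4.68% of tested genes. Letters of an E2F site, searched as TTCCCGC and as TTCGCGC, with the further forms TTGCCGC and then TTGGCGC, stood in 6 of 41 windows (14.6%), against 18.2% of tested genes. A match describes letters and is not evidence of binding, and no match says only that these letters are not in this window.

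**Figure D1:**
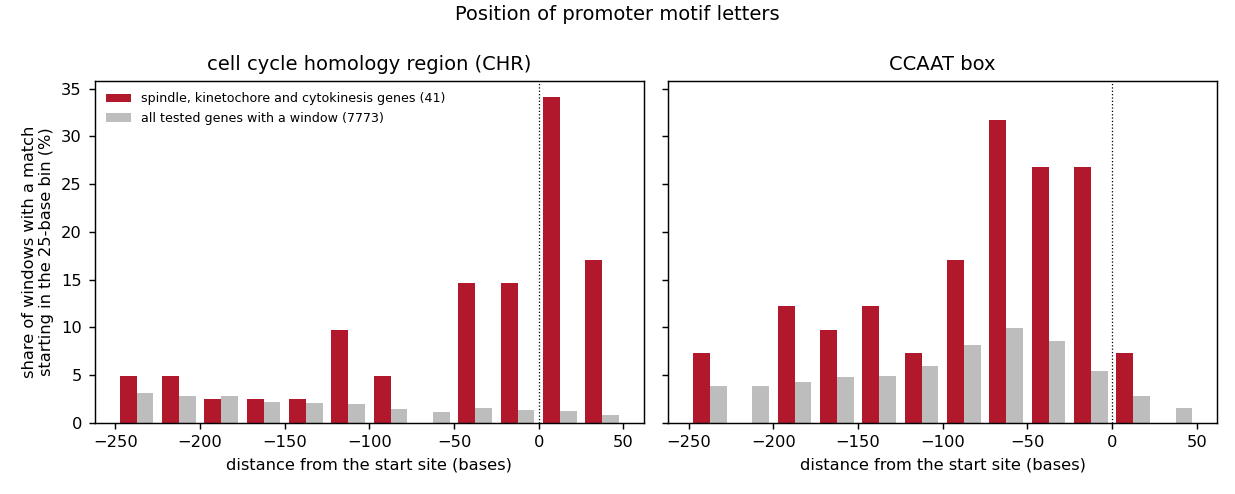
Share of promoter windows, in percent, that hold a CHR or CCAAT match in each bin of 25 bases by distance from the annotated start, for the 41 windows of the mitotic genes and for 7773 windows of all tested genes. CHR matches of the mitotic genes peak in the first 25 bases after the start, in 34.1% of their windows against 1.2% of windows of all tested genes.

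The promoters of 6 genes are shown because later results turn on these genes. They are printed 5′ to 3′ on the gene's strand with CHR and CCAAT matches, on either strand, in capitals. Cdc20 is shown as a window with both motifs near the start. Cdca8 and Cenpe are members whose knockout and control lines did not overlap, and Ncapd2, Nek2 and Mybl2 are the 3 that departed upwards by 1.5-fold or more in line KO2. That limit was applied after 0.5 CPM was added to each value, and Pttg1 in KO2, at 40.9 CPM, fell just short of it.
Cdc20 promoter, chr4:118437294-118437593, minus strand: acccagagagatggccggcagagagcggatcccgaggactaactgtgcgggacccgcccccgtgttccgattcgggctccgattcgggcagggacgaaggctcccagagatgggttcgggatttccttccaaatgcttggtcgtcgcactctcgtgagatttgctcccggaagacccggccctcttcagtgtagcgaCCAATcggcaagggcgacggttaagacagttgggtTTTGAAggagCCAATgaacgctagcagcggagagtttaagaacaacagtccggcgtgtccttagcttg
Cdca8 promoter, chr4:124936868-124937167, minus strand: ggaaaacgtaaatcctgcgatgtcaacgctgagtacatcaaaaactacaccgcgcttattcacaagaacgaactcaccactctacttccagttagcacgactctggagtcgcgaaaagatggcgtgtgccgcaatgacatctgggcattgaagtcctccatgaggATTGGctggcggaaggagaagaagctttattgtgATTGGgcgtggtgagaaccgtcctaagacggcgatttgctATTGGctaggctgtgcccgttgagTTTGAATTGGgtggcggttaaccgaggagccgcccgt
Cenpe promoter, chr3:135212313-135212612, plus strand: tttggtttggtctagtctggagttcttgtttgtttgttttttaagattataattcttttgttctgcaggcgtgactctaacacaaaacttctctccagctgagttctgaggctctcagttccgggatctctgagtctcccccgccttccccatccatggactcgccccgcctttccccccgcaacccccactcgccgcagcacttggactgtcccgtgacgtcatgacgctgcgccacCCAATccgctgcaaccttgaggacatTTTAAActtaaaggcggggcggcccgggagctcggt
Ncapd2 promoter, chr6:125191537-125191836, minus strand: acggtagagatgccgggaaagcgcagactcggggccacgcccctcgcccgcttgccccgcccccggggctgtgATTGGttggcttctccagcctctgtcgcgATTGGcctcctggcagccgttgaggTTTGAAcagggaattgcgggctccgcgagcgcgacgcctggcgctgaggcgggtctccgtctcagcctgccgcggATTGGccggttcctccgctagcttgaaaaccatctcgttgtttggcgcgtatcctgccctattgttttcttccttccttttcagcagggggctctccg
Nek2 promoter, chr1:191821223-191821522, plus strand: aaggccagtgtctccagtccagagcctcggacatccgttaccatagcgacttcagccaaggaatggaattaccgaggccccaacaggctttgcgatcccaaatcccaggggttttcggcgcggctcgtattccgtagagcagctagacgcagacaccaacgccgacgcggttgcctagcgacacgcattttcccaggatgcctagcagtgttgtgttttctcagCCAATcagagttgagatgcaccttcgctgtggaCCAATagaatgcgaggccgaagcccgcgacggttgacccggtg
Mybl2 promoter, chr2:163054385-163054684, plus strand: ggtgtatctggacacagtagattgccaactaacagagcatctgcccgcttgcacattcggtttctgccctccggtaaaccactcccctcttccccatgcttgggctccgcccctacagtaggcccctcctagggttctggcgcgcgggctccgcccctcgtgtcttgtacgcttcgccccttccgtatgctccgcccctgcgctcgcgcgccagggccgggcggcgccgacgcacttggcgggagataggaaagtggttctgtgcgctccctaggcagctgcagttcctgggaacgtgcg

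The Cdc20 window held 1 CHR match, beginning 18 bases before the start, between CCAAT matches at 53 and 8 bases before it. In the Cdca8 window the CHR match began 14 bases after the start and ran into 1 of 4 CCAAT matches on the opposite strand, the letters ATTGG. The Cenpe CHR match began 15 bases after the start. Ncapd2 had its CHR match at 123 bases before the start, farther upstream than in the other 3. The Nek2 window held CCAAT at 26 bases before and 8 bases after the start and no CHR letters, and the Mybl2 window held neither. Windows of 9 members had no CHR letters: Bub1, Mad2l1, Nek2, Nuf2, Fzr1, Pttg1, Nusap1, Ncaph and Mybl2.

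The libraries held 17859519 to 20415572 counts in knockout lines and 19060127 to 24108563 counts in control lines, so that 3 counts, the limit that a count of 0 allows, equalled 0.124 to 0.168 CPM, the count scaled to its library's total. Cdk6 RNA was not lower in the knockout lines. The knockout lines, KO1 first, had 42.1, 72.6 and 40.4 CPM, against 39.45, 45.0 and 55.8 CPM in the control lines, WT1 first. The groups overlapped (log2 fold change 0.14 ± 0.29 SE). By exact permutation the two-sided p was 0.8, in a design that cannot go below 0.1. In every list of 3 values, lines are in the order of their numbers. Gene counts do not show small changes at a guide's cut, so this neither checks nor contradicts the labels. Line KO2 stood apart from the other 5: its log2 CPM correlated with theirs across genes at 0.906 to 0.955, and WT1 and WT3 correlated at 0.995. Pre-B markers summed to 3939 to 5209 CPM in knockout lines and 4527 to 4669 CPM in control lines. Markers of other cell types were far lower: 12 myeloid markers summed to 35.4 to 116.8 CPM in knockout lines and 70.8 to 92.0 CPM in control lines, with Elane, Ly6c2, S100a8 and S100a9 at 0. The sums hide differences between markers. The 5 myeloid markers tested had log2 fold changes from -1.48 to 2.71. Of these 5, edgeR called 0 and DESeq2 2, against 1.94% of all genes in DESeq2. All knockout lines lay below all control lines in 2 of the 5, against 8.68% of tested genes. Markers of T and NK cells summed to 10.5 to 77.8 CPM in knockout lines and 14.3 to 21.7 CPM in control lines, with Cd3e, Cd4, Cd8a, Cd8b1 and Ncr1 at 0. Of the 8 with a row, 7 stayed under 1 CPM in every line, so this sum rests on the remaining gene. Erythroid markers stayed under 1 CPM in all lines, and those of stroma and endothelium summed to 97.3 to 154.0 CPM in knockout lines and 78.5 to 114.5 CPM in control lines, with Col1a2, Col3a1, Cdh5 and Cxcl12 at 0. Of these 7 stromal and endothelial markers, 6 stayed under 1 CPM in every line, so their sum also rests on the remaining gene.

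The comparison of knockout with control lines asks whether the RNA of mitotic genes differs without CDK6. None of the 48 passed at an adjusted p of 0.05 in edgeR's quasi-likelihood test, and none did in DESeq2. Of all 10896 tested genes edgeR called 0%, and DESeq2 called 218 of the 11212 it tested (1.94%). Fold changes of the members were small: the log2 fold change, knockout over control, ran from -0.20 for Kif20a to 0.41 for Pttg1, with a median of 0.02, beside a median of 0.02 over all tested genes. Below 0 were 17 and above 0 were 31, so 35.4% lay below 0 against 47.2% of all tested genes. At an unadjusted p under 0.05 edgeR counted 3 of 48 (6.25%), namely Cdca8 with a negative and Cenpe and Ncapg with a positive fold change, against 9.45% of all tested genes.

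**Figure D2:**
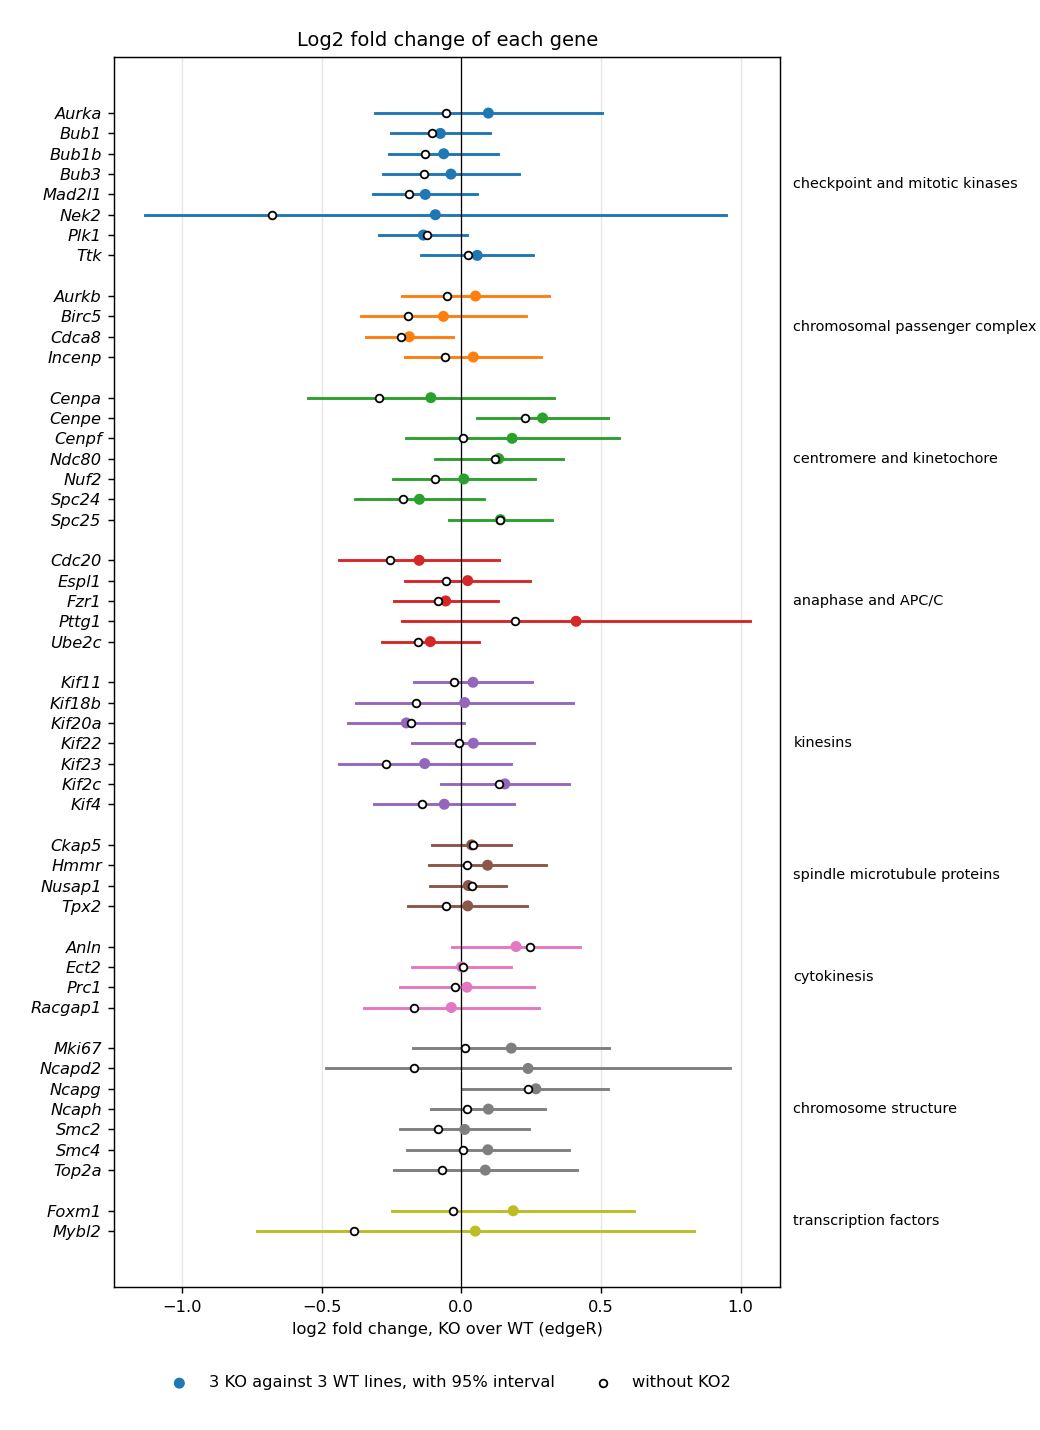
Log2 fold change, knockout over control, with its 95% confidence interval from edgeR, for the 48 genes ordered by role (3 lines a group), with open points for the fit without line KO2. Most intervals are short and cross 0; Nek2 has the widest, from -1.13 to 0.95.

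The precision was enough to bound most of these differences. The median standard error of a member was 0.10 on the log2 scale. For 37 of 48 members (77.1%) the whole 95% interval lay within 0.5 of 0 on the log2 scale, against 43% of all tested genes and 67.4% of those averaging 50 CPM or more. For 46 of 48 (95.8%) it lay within 1, a doubling or halving, against 72.5% of all tested genes. The exceptions were Nek2 and Pttg1, whose interval ended at 1.03. The lines of a group were also close to each other: the median SD of a member's log2 CPM was 0.12 among knockout and 0.06 among control lines, and 0.07 among knockout lines without KO2.

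All 3 knockout lines lay below all 3 control lines in 3 of 48 members (6.25%), Mad2l1, Cdca8 and Ube2c, against 8.68% of tested genes and 12.5% of those averaging 50 CPM or more. They lay above in 4 (8.33%), Cenpe, Spc25, Ncapg and Ncaph, against 10.6% of tested genes and 9.51% of those averaging 50 CPM or more. Neither share exceeded the background. Library composition moved these counts little, since 3 members lay below and 3 above on CPM scaled by TMM, a correction for library composition used here after the data were seen, against 11% and 8.53% of tested genes.

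**Figure D3:**
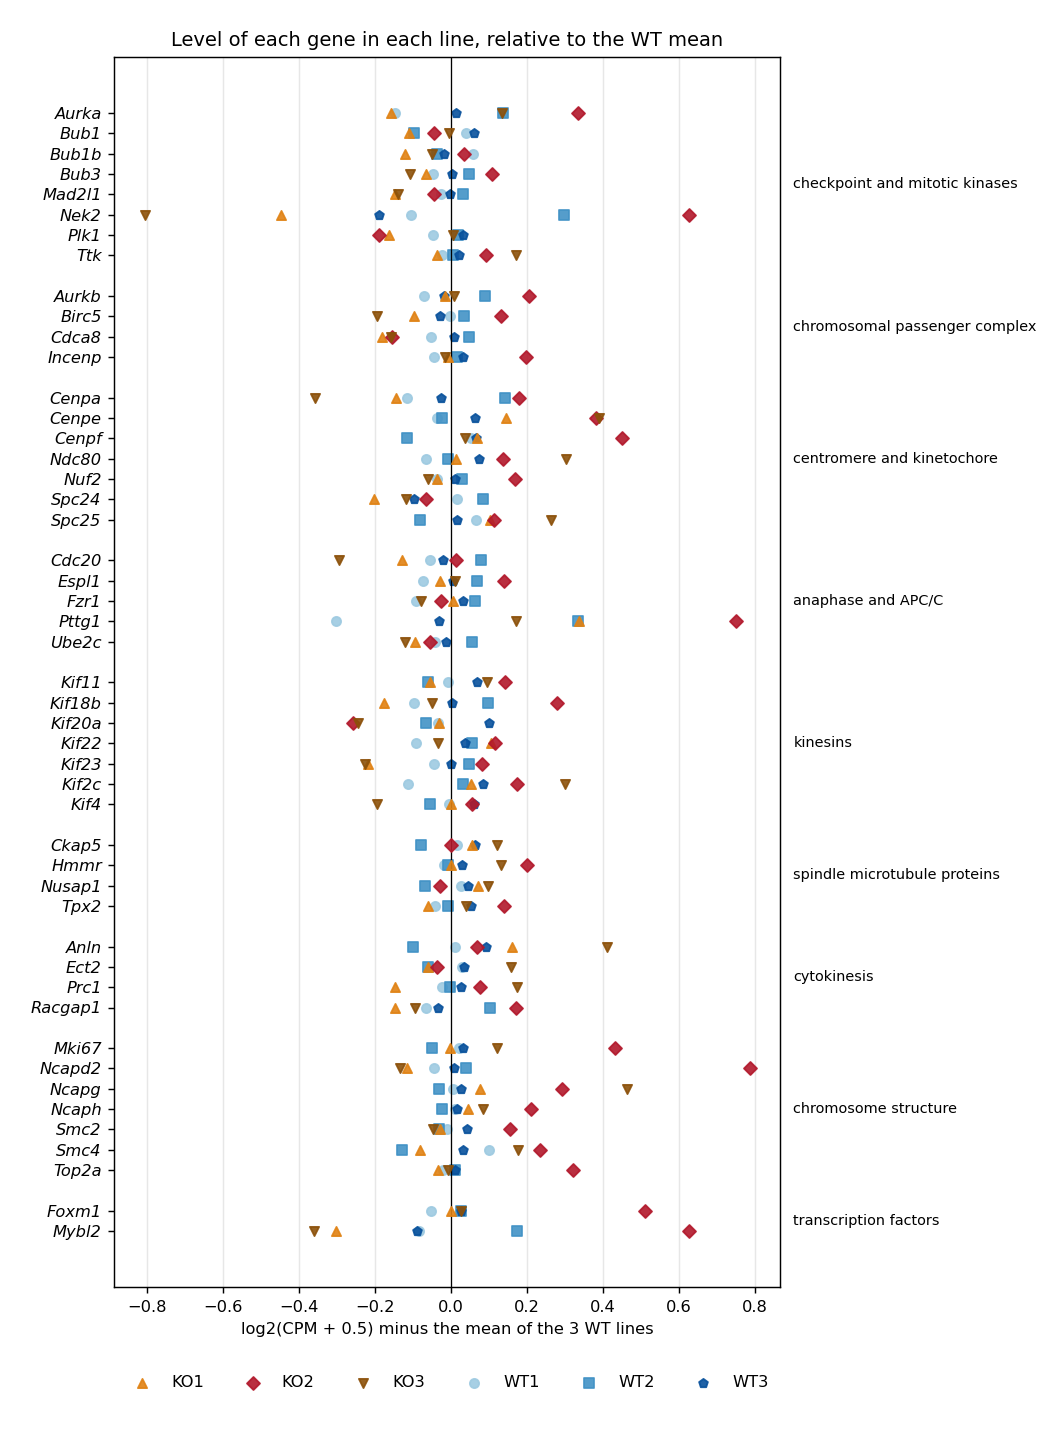
Log2 CPM of each of the 48 genes in each of the 6 lines minus its mean over the control lines, ordered by role. Nek2, Ncapd2 and Mybl2 lie above the control mean in KO2 and below it in KO1 and KO3. The farthest point is Nek2 in KO3 at -0.81, beside 0.63 in KO2, and the next is Ncapd2 in KO2 at 0.79.

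Mitotic kinases and checkpoint proteins had a median log2 fold change of -0.07, with 6 of 8 below 0. Plk1, the polo-like kinase that drives mitotic entry and spindle assembly, stood at 194.0, 190.5 and 217.8 CPM in knockout lines, against 210.3, 219.7 and 221.8 CPM in control lines. The groups overlapped only through KO3, and the difference did not pass (log2 fold change -0.14 ± 0.06 SE, edgeR adjusted p = 0.556). Mad2l1, which encodes the checkpoint protein that holds CDC20 inactive until chromosomes are attached, stood at 131.1, 140.8 and 131.7 CPM in knockout lines, against 142.4, 148.3 and 144.8 CPM in control lines. Its groups did not overlap, by a gap smaller than the spread among knockout lines (log2 fold change -0.13 ± 0.08 SE, edgeR adjusted p = 0.620).

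Aurka, the centrosomal Aurora kinase, overlaps Cstf1 in the genome and stood at 98.6, 139.0 and 120.9 CPM in knockout lines, against 99.3, 121.1 and 111.0 CPM in control lines. The control lines lay inside the range of the knockout lines, and the sign turned without KO2 (log2 fold change 0.10 ± 0.16 SE with all lines and -0.06 without KO2). The checkpoint kinases Bub1 and Bub1b and the checkpoint protein Bub3 averaged 168.8, 376.5 and 289.4 CPM in knockout lines and 175.3, 388.3 and 293.4 CPM in control lines. Ttk, the kinase MPS1 that starts checkpoint signalling, averaged 66.2 CPM in knockout lines and 62.7 CPM in control lines.

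The chromosomal passenger complex corrects faulty attachments and guides cytokinesis, through the kinase Aurkb, the scaffold Incenp, survivin (Birc5) and borealin (Cdca8). Cdca8 stood at 194.9, 198.3 and 198.0 CPM in knockout lines, against 212.7, 228.4 and 222.0 CPM in control lines. All knockout lines were lower than all control lines and lay within a few CPM of each other (log2 fold change -0.19 ± 0.06 SE, edgeR unadjusted p = 0.027, adjusted p = 0.497). Its partners did not share the pattern: Aurkb stood at 232.3, 270.7 and 236.1 CPM in knockout lines, against 223.3, 249.8 and 231.8 CPM in control lines, with KO2 above and KO1 and KO3 within the control range. Incenp averaged 358.4 CPM in knockout and 343.7 CPM in control lines. Birc5 stood at 191.9, 225.0 and 179.4 CPM in knockout lines, against 204.9, 210.3 and 201.2 CPM in control lines. For Birc5, KO1 and KO3 were below and KO2 above all controls. Log2 fold changes of these partners were 0.05, 0.04 and -0.06. Without KO2 all 4 genes of the complex lay below 0.

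Kinetochore members had a median log2 fold change of 0.13, with 2 of 7 below 0. Cenpe, the kinesin that carries chromosomes to the spindle equator, stood at 163.6, 193.1 and 194.2 CPM in knockout lines, against 144.1, 145.5 and 154.7 CPM in control lines. The groups did not overlap, with KO1 nearest to the controls, and Cenpe had the smallest p of the 48 (log2 fold change 0.29 ± 0.10 SE, 95% interval 0.06 to 0.53, edgeR unadjusted p = 0.024, adjusted p = 0.496). The NDC80 complex, which binds microtubules, was split in sign: Ndc80 averaged 80.6 CPM and Spc25 71.3 CPM in knockout lines, against 72.4 and 63.7 CPM in control lines. Spc24, the direct partner of Spc25, stood at 57.5, 63.2 and 61.0 CPM in knockout lines, against 66.95, 70.2 and 61.8 CPM in control lines, with KO2 between WT3 and the other control lines (log2 fold change -0.15 ± 0.09 SE). Nuf2 averaged 114.5 CPM in knockout lines and 112.4 CPM in control lines. Cenpa, the centromeric histone H3 variant, stood at 201.9, 252.5 and 173.9 CPM in knockout lines, against 205.9, 246.2 and 219.1 CPM in control lines, with KO2 highest and KO3 lowest of all 6.

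Among regulators of the anaphase-promoting complex the median log2 fold change was -0.06, with 3 of 5 below 0. Cdc20, its mitotic activator, stood at 235.1, 259.3 and 209.4 CPM in knockout lines, against 247.3, 271.7 and 253.3 CPM in control lines. KO1 and KO3 were below every control line and KO2 was among them (log2 fold change -0.15 ± 0.12 SE, edgeR adjusted p = 0.705); Cdc20 overlaps Elovl1 in the genome. Overlaps also concern Prc1 with Rccd1, Anln with 9530077C05Rik, Nusap1 with Oip5 and Ncapg with Lcorl, and reads of such pairs cannot be told apart if they were counted without strand. Pttg1, which encodes securin, the inhibitor of the cohesin-cleaving protease separase, was the lowest in CPM of the 48. It stood at 30.6, 40.9 and 27.2 CPM in knockout lines, against 19.45, 30.5 and 23.6 CPM in control lines. WT1 lay more than 1.5-fold from the median of the other 5, and the fold change, the largest of the 48, did not pass (0.41 ± 0.25 SE on the log2 scale, edgeR adjusted p = 0.639). Ube2c, the ubiquitin-conjugating enzyme of the complex, averaged 190.9 CPM in knockout and 203.4 CPM in control lines.

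Kinesins had a median log2 fold change of 0.01, with 3 of 7 below 0. Kif20a, a kinesin of the central spindle, had the lowest fold change of the 48 and stood at 392.9, 335.6 and 338.7 CPM in knockout lines, against 391.6, 383.8 and 430.3 CPM in control lines. KO2 and KO3 lay below all control lines and KO1 among them (log2 fold change -0.20 ± 0.08 SE, edgeR adjusted p = 0.534); it overlaps Brd8 and Cdc23. Kif2c, a microtubule depolymerase, stood at 100.3, 109.0 and 119.1 CPM in knockout lines, against 89.3, 98.7 and 102.5 CPM in control lines. KO2 and KO3 were above all control lines and KO1 among them (0.16 ± 0.09 SE).

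Spindle-associated proteins had log2 fold changes between 0.02 and 0.09, with none of 4 below 0. Hmmr, which helps spindle poles assemble, stood at 136.7, 157.2 and 149.8 CPM in knockout lines, against 135.0, 135.9 and 139.5 CPM in control lines, with KO1 inside the control range (0.09 ± 0.09 SE). Tpx2, the activator of Aurora A on the spindle, stood at 318.5, 366.2 and 341.8 CPM in knockout lines, against 322.9, 330.3 and 344.3 CPM in control lines. KO2 was above and KO1 below all controls, and KO3 lay among them (0.02 ± 0.09 SE). Ckap5, a microtubule polymerase, and Nusap1, a spindle-binding protein, averaged 382.5 and 210.5 CPM in knockout lines and 367.3 and 203.9 CPM in control lines.

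Of the cytokinesis factors, Anln, the anillin that scaffolds the contractile ring, stood at 118.1, 110.7 and 140.4 CPM in knockout lines, against 106.2, 98.4 and 112.4 CPM in control lines. KO2 fell among the control lines and the difference did not pass (log2 fold change 0.20 ± 0.09 SE, edgeR adjusted p = 0.560). Ect2, Prc1 and Racgap1, which position the furrow and bundle the central spindle, had log2 fold changes of 0.00, 0.02 and -0.04. Racgap1 stood at 240.7, 300.2 and 249.8 CPM in knockout lines, against 254.9, 286.1 and 260.4 CPM in control lines, with KO2 above and KO1 and KO3 below all controls.

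None of the 7 chromosome-structure genes lay below 0, and their median log2 fold change was 0.10. Ncapg, a condensin I subunit, stood at 130.4, 151.6 and 170.8 CPM in knockout lines, against 124.1, 121.0 and 125.8 CPM in control lines. The groups did not overlap, and the control lines were much closer to each other than the knockout lines (log2 fold change 0.27 ± 0.11 SE, edgeR unadjusted p = 0.046, adjusted p = 0.528). Its partner Ncaph averaged 188.3 CPM in knockout and 173.9 CPM in control lines, and Smc4, in the core that both condensins share, 431.3 CPM in knockout and 398.8 CPM in control lines. Smc2, the other core subunit, stood at 340.4, 387.0 and 335.7 CPM in knockout lines, against 344.6, 339.8 and 357.7 CPM in control lines, with a log2 fold change of 0.01 ± 0.09 SE.

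Top2a and Mki67 are common marks of proliferating cells. Top2a stood at 1348, 1729 and 1374 CPM in knockout lines, against 1362, 1392 and 1394 CPM in control lines (log2 fold change 0.09 ± 0.13 SE). Mki67, which coats mitotic chromosomes, stood at 1210, 1635 and 1319 CPM in knockout lines, against 1230, 1171 and 1239 CPM in control lines (0.18 ± 0.14 SE). In both genes KO2 was the highest line and KO1 lay close to or within the control range, and neither difference passed in edgeR (adjusted p = 0.859 and 0.713).

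Levels between genes can be compared only per length. On CPM per kilobase of the principal transcript, Top2a, the topoisomerase that untangles sister chromatids, was highest at 284.2 in knockout lines and 264.9 in control lines. Birc5 followed at 209.9 in knockout and 217.0 in control lines, and Ube2c stood at 197.5 in knockout and 210.4 in control lines. Ncapd2 averaged 198.0 in knockout lines, through its high level in KO2, and 166.9 in control lines. Cenpf, a large outer kinetochore protein, was lowest at 17.2 in knockout and 15.05 in control lines. Within the chromosomal passenger complex, the other subunits stood below Birc5: Aurkb, Incenp and Cdca8 had 126.3, 110.7 and 121.2 in knockout lines, against 120.5, 106.2 and 135.9 in control lines. Ndc80, Nuf2, Spc24 and Spc25 lay between 36.6 and 59.7 in knockout lines and between 32.9 and 53.4 in control lines.

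Line KO2 carried most of the variation within the knockout group. The 48 genes together took 1.18%, 1.445% and 1.22% of the counts in knockout lines, against 1.206%, 1.23% and 1.241% in control lines. KO2 held the highest level of all 6 lines in 26 of 48 members (54.2%), against 26.3% of all tested genes and 26.8% of those averaging 50 CPM or more. Some other cell-cycle lists showed the like: KO2 was highest in 65% of 20 further spindle, kinesin and centrosome genes and in 53.3% of 15 genes of CDK1, CDK2 and their cyclins. Others did not, with 17.6% of 17 outer kinetochore, 23.5% of 17 inner kinetochore and 7.14% of 14 anaphase-promoting complex genes. The share was 33.3% of 12 condensin II and cohesin genes and 17.9% of 28 genes of replication origins and forks. By library totals, the median member lay 0.14 above its control mean in KO2 on the log2 scale, 0.04 below it in KO1 and at 0.00 in KO3. On TMM-scaled CPM the medians were 0.175 in KO2, -0.076 in KO1 and -0.062 in KO3. Only 4 of 48 members (8.33%) departed by 1.5-fold or more in at least 1 library from the median of the other 5, with 0.5 CPM added to each value. The share was 35.6% of all tested genes and 17.9% of those averaging 50 CPM or more. The 4 were Nek2, Ncapd2 and Mybl2, high in KO2, and Pttg1, low in WT1. Nek2 was also lowest of all 6 lines in KO3, at 104.6 CPM.

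Nek2, a kinase that separates the centrosomes, stood at 134.4, 283.4 and 104.6 CPM in knockout lines, against 170.2, 225.5 and 160.6 CPM in control lines. KO2 was above every control line and KO1 and KO3 below every one, so the group difference was near 0 with a wide error (log2 fold change -0.09 ± 0.42 SE). Mybl2, the B-MYB that joins MuvB at mitotic promoters, stood at 111.8, 213.4 and 107.4 CPM in knockout lines, against 130.3, 155.8 and 129.9 CPM in control lines, with the same arrangement (0.05 ± 0.32 SE). Ncapd2, a condensin I subunit, stood at 712.8, 1332 and 703.8 CPM in knockout lines, against 748.8, 792.9 and 776.6 CPM in control lines, again with KO2 above and KO1 and KO3 below all controls (0.24 ± 0.29 SE). Foxm1, the forkhead factor of G2 genes, stood at 228.1, 325.0 and 232.3 CPM in knockout lines, against 219.8, 232.1 and 232.3 CPM in control lines. KO2 was alone in being high, and KO1 and KO3 lay within or at the edge of the control range (0.19 ± 0.18 SE). None of these 4 passed in edgeR, with adjusted p of 0.960, 0.972, 0.820 and 0.762. Among control lines WT2 was the highest for Nek2, Mybl2 and Ncapd2, though not for Foxm1. Across genes, the deviations of KO2 and WT2 from their group means correlated at 0.694.

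**Figure D4:**
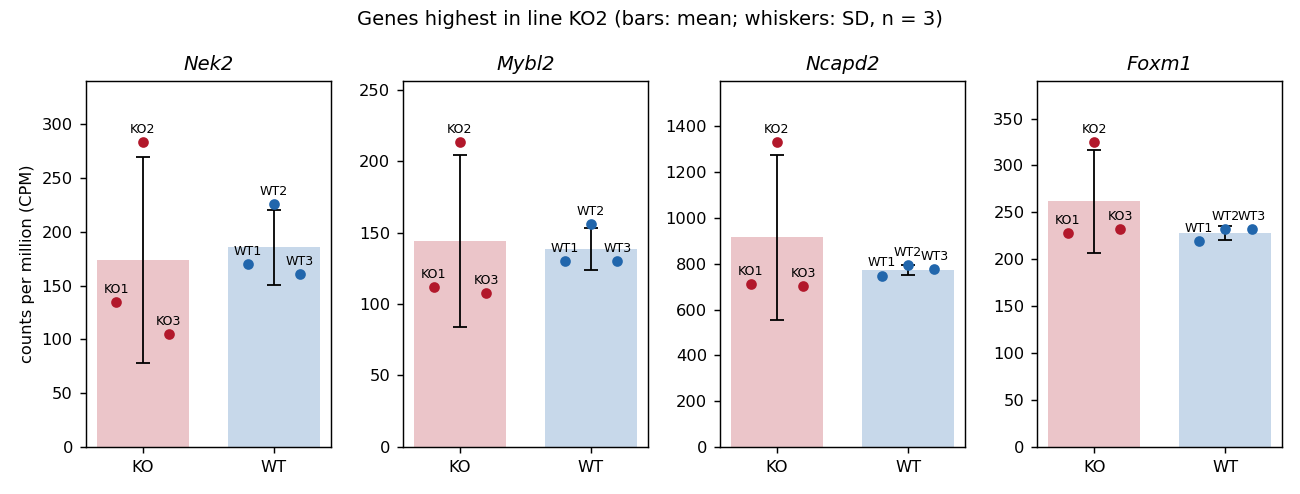
CPM of Nek2, Ncapd2, Mybl2 and Foxm1 in each of the 6 lines, knockout lines left of control lines, with a bar at each group's mean. In all 4 genes KO2 is the highest point, and for Nek2, Ncapd2 and Mybl2 the other knockout lines lie below all control lines.

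Neighbouring genes were read for the same lines, taking genes within 5 Mb with a mean of at least 5 CPM. Ncapd2 (chr6:125168007-125192100) and Foxm1 (chr6:128362994-128375886), given on GRCm38, lie close together on chromosome 6. Ncapd2 in KO2 lay 0.84 above the mean of the other 5 lines on the log2 scale, and its 59 neighbours had a median of 0.50. For Foxm1 the value was 0.51, and its 42 neighbours had a median of 0.43. Ncapd2 and Foxm1 lie within 5 Mb of each other, so their sets of neighbours overlap and these medians are not separate observations. Neighbours of Nek2 and Mybl2 did not share their genes' level: Nek2 lay at 0.83 against a median of -0.16 over 21 neighbours, and Mybl2 at 0.75 against -0.01 over 50. Kif20a on chromosome 18 lay at -0.21, and its 59 neighbours had a median of -0.58, the lowest around any of the 48 genes. Copy number was not measured, and its part in these values was not tested.

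**Figure D5:**
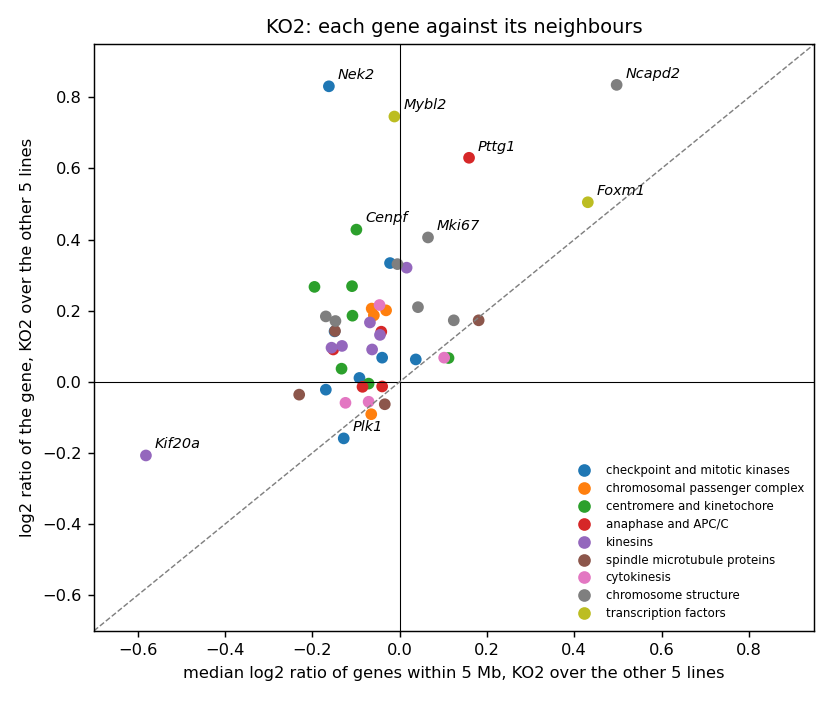
Log2 ratio of line KO2 to the mean of the other 5 lines for each of the 48 genes (vertical axis) against the median of the same ratio over its neighbours within 5 Mb (horizontal axis). Ncapd2 and Foxm1 lie at neighbour medians of 0.50 and 0.43, while Nek2 and Mybl2 are high beside neighbours near or below 0.

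Without KO2 the members leaned the other way. Log2 fold changes lay below 0 for 32 of 48 (66.7%), against 49% of the 11043 genes tested in that fit and 58.3% of those averaging 50 CPM or more, with a median of -0.06. The 80 further mitotic genes described after these did not share that lean, with 37 (46.2%) below 0 without KO2. Other cell-cycle lists leaned further: below 0 lay 13 of 15 genes of CDK1, CDK2 and their cyclins (86.7%) and 25 of 28 origin and fork genes (89.3%). At an unadjusted p under 0.05 edgeR counted 12 of 48 (25%), 10 of them lower and 2 higher, against 18.8% of genes tested. KO1 and KO3 both lay below all 3 control lines in 14 members (29.2%), against 16% of tested genes and 21.7% of those averaging 50 CPM or more. They lay above in 6 (12.5%), against 26.6% and 22.5%. Among the 80 further genes they lay below in 13.8% and above in 31.2%. In the list of CDK1, CDK2 and cyclins they lay below in 40% and above in 0%, and among origin and fork genes in 60.7% and 7.14%. DESeq2 without KO2, added after the data were seen, called 5 of the 48 lower and none higher, beside 5.95% of 11496 genes called in either direction and 3.68% called lower. These were Nek2 (log2 fold change -0.68, DESeq2 adjusted p = 0.015), Kif23, a central-spindle kinesin (-0.27, 0.011), Mybl2 (-0.39, 0.039), Cdca8 (-0.22, 0.040) and Ncapd2 (-0.17, 0.048). Kif23 stood at 135.9, 167.7 and 135.3 CPM in knockout lines, against 153.3, 163.5 and 158.4 CPM in control lines, so that KO2 was again above and KO1 and KO3 below all controls. edgeR called none of the 5 genes without KO2, and leaving out WT2 as well left only Nek2 called by DESeq2 (adjusted p = 0.038), beside 2.89% of genes. In edgeR without both lines numbered 2, 33 of 48 members lay below 0, with a median of -0.05. Of the 10896 genes of the main fit, 5239 did. With 2 knockout lines in these fits, the values describe KO1 and KO3 and not the group as labelled.

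Split by promoter letters, members had a median log2 fold change of 0.03 with a CHR match, 0.01 without one, and 0.04 for the 7 genes with no window. Without KO2 these medians were -0.06, -0.09 and -0.06. The difference between these medians was not tested.

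A further 80 genes of the same processes, listed by complex, were all tested. edgeR called none, their median log2 fold change was 0.04, and 31 lay below 0. At an unadjusted p under 0.05 it counted 2 lower and 8 higher (12.5% in all, against 9.45% of tested genes). DESeq2 called 2 of the 80, both lower, a share near its 1.94% over all genes. Pmf1, a subunit of the MIS12 kinetochore complex, stood at 116.7, 102.8 and 97.2 CPM in knockout lines, against 151.1, 149.6 and 144.0 CPM in control lines. Every knockout line was well below every control line (log2 fold change -0.51 ± 0.09 SE, edgeR adjusted p = 0.479, DESeq2 adjusted p = 0.000511). Zwint, which links the outer kinetochore to the checkpoint, stood at 135.5, 138.5 and 135.8 CPM in knockout lines, against 160.5, 168.4 and 170.1 CPM in control lines. Its groups were also separate (-0.30 ± 0.07 SE, edgeR adjusted p = 0.479, DESeq2 adjusted p = 0.007). Both differences were about as large without KO2, at -0.52 and -0.34.

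Some other kinetochore genes had fold changes of the opposite sign: Mis12, of the same complex as Pmf1, had a log2 fold change of 0.21 ± 0.07 SE, and Cenpc1, which anchors the kinetochore to centromeric chromatin, 0.31 ± 0.10 SE. Cenpo, of the inner kinetochore, had 0.27 ± 0.10 SE. None of these passed an edgeR adjusted p of 0.05. The 17 outer kinetochore and checkpoint genes had a median of 0.07, with 5 below 0. The 17 inner kinetochore genes had a median of 0.04, with 6 below 0 and the lowest at -0.43. Subunits of the anaphase-promoting complex and its partners had a median of -0.10, with 10 of 14 below 0, among them Anapc7 at -0.18 ± 0.08 SE, Ube2s at -0.18 ± 0.08 SE and Anapc5 at -0.12 ± 0.06 SE. Spindle, kinesin and centrosome genes had a median of 0.14, with 3 of 20 below 0, and without KO2 the median was 0.03 with 9 below 0. The kinesins Kif20b and Kif14 had 0.35 ± 0.15 SE and 0.21 ± 0.08 SE, and the spindle protein Ckap2l 0.23 ± 0.10 SE. Condensin II and cohesin genes had a median of -0.02 over 12, with Ncapd3 of condensin II at 0.26 ± 0.08 SE and the cohesin subunits Stag1 and Stag2 at -0.22 ± 0.14 SE and 0.12 ± 0.08 SE.

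For comparison, 28 genes of replication origins and forks had a median of -0.17 with 22 below 0 (78.6%, against 47.2% of all tested genes). DESeq2 called 7 of them, against 1.94% of all genes. edgeR called 0, with 12 at an unadjusted p under 0.05. Against the control mean, these genes had medians of -0.13 in KO1, -0.18 in KO2 and -0.20 in KO3 on the log2 scale by library totals, and of -0.17, -0.14 and -0.26 on TMM-scaled CPM. The medians of all 3 lines were below 0 on both scales, and the place of KO2 among them depended on the scale.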

How the data were processed

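RNA from 6 mouse cell lines (3 Cdk6 knockout, 3 wild type) was sequenced from TruSeq libraries, per the labels' protocols. The deposited values are raw read counts per gene, whole numbers in 1 table of 25965 rows. The submitters' processing notes name Trim Galore, STAR, DESeq2 and GRCm38; for the counting program, its annotation and its use of strand, the answer is not given in the sources used here. The members and gene lists were chosen with earlier results of these data known.

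Counts were tested with edgeR 4.0.16 (R 4.3.3): filterByExpr, TMM scaling, robust quasi-likelihood F test, and Benjamini-Hochberg adjustment over all 10896 genes, without a replicate block. Calls need an adjusted p under 0.05. Alternatives were DESeq2 1.42.0, limma-voom (limma 3.58.1), no low-count filter, other scalings, the block, and leaving out each line. Printed CPM are divided by library totals, and fold changes come from the TMM-scaled fit. TMM factors ran from 0.968 to 1.036. The fits were tested on simulated counts. Levels per kilobase use GENCODE M21 principal transcripts. Promoters are RefSeq windows on GRCm38.p6 (41 of 48 members matched), 1 per gene, the one nearest the gene's outer 5′ end. List symbols were matched through older names for 11 of 216 genes, and 3 had no row. Floors from counts cover counting error only. Intervals of fold changes come from the edgeR fit and also include the spread between lines.

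Replicate numbers in the labels were checked as pairs: deviations from group means correlated across genes at 0.398, 0.694 and 0.480 for the lines numbered 1, 2 and 3. All exceeded 0.1, the level set for pairing, but so did some unlike numbers, KO1 with WT3 at 0.432 and KO3 with WT1 at 0.466. Unlike pairs with a line numbered 2 lay below 0: KO2 with WT1 and WT3 at -0.526 and -0.554, and WT2 with KO1 and KO3 at -0.532 and -0.608. The check therefore sets only number 2 apart and cannot tell whether equal numbers pair the lines numbered 1 and 3. The labels do not say what a number shares, and what KO2 and WT2 share was not tested. The main test left the numbers out, with the block as an alternative. Values per line are given for members past a test, the lowest and highest log2 fold change of each role, members departing by 1.5-fold or more in 1 library, and Foxm1, Mybl2, Plk1, Aurka, Aurkb, Mki67 and Top2a. Of each further list, up to 3 genes with the smallest p are named, except for 1 that is not reported here. Mad2l1, Birc5, Cenpa and Kif23 were added after their values were seen.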

Additional observations from a re-analysis of the deposited data

How the results depend on the processing

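Of 555 log2 fold changes of 37 genes (22 members, 15 others) under 15 alternatives, 530 kept their direction and side of the threshold. The exceptions were DESeq2's calls of Pmf1 and Zwint and 23 changes of sign in 11 members, none past the threshold on either side. edgeR called no gene under any alternative, and no fold change of a member passed with the replicate block (0 genes called), which changed no call. DESeq2 called 218 genes, 277 without WT2, 684 without KO2 and 340 without both lines numbered 2, and of the 48 members it called 5 without KO2 and 1 without both. Limma-voom called 0 genes. Members below 0 numbered 13 to 32 across fits leaving out 1 line, 32 without KO2, and 33 without both lines numbered 2. Members below all control lines numbered 4 to 14 when 1 line was left out (14 without KO2, 5 without WT1) and 16 without both. Members above numbered 4 to 12 (12 without KO1, 8 without WT3, 7 without KO3) and 8 without both, where fewer lines make a separation easier. Without KO2, 16% of all tested genes lay below and 26.6% above. The shares for the other omissions were not computed, so those counts cannot be read against a background. Cdk6 ran from -0.224 without KO2 to 0.306 without KO3 and stood at -0.245 without both. Leaving out 1 line gave log2 fold changes of -0.055 to 0.228 for Aurka, -0.679 to 0.183 for Nek2, -0.050 to 0.104 for Aurkb, -0.055 to 0.083 for Tpx2, -0.169 to 0.037 for Racgap1, -0.170 to 0.414 for Ncapd2, -0.084 to 0.068 for Smc2, -0.068 to 0.162 for Top2a, -0.031 to 0.288 for Foxm1 and -0.385 to 0.240 for Mybl2. Without both lines numbered 2, Tpx2 stood at -0.054, Mki67 at -0.005, Ncapd2 at -0.146, Smc2 at -0.094, Top2a at -0.057, Foxm1 at -0.013 and Mybl2 at -0.287. Mybl2 was also below 0 with limma-voom (-0.034) and with the replicate block (-0.035). The cause of these changes of sign was not tested beyond the lines left out.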
